A study of Mus musculus with 6 samples.

Results

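The 10 genes described here encode secreted glycoproteins and proteoglycans of the extracellular matrix: *Fn1*, *Sparc*, *Postn*, *Tnc*, *Thbs1*, *Thbs2*, *Dcn*, *Lum*, *Bgn* and *Fbn1*. They were chosen by name with earlier results of these data known, as was a wider list used below. All 10 had at least 1 count in some library, out of 23231 genes with counts. RNA-Seq was done on C2C12 cells, a mouse myoblast line that leaves the cell cycle and fuses into myotubes in low serum. All cells carried a lentiviral dCas9-KRAB transgene under the human ubiquitin C promoter, in which a Cas9 without cutting activity is fused to the KRAB repressor domain. The 3 control libraries (dCas9-KRAB) came from cells without enhancer guides, and the 3 test libraries (dCas9-KRAB-En5) came from cells that also expressed 2 sgRNAs to En5, an enhancer upstream of the myogenic transcription factor gene *Myog*. Virus was used at an MOI of 100, both groups were selected with puromycin (2 µg/ml) and switched to 2% horse serum, and RNA was taken on day 5 of differentiation. The selected cells are not described as clones. Nothing in the labels says that the 3 libraries of a group came from separate transductions, so a p-value measures the spread between these libraries, which may be technical. Where 3 values of a group are listed, they stand in the order of its replicates 1, 2 and 3.

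Matrix glycoproteins and proteoglycans are secreted around the collagen scaffold. Fibronectin forms fibrils that cells grip through integrins, whereas SPARC, the thrombospondins, tenascin-C and periostin are matricellular proteins, which change how cells attach and signal without building the main scaffold. Decorin, biglycan and lumican are small leucine-rich proteoglycans that bind collagen fibrils and growth factors, and fibrillin-1 forms the microfibrils that carry elastin and latent TGF-β. In muscle these proteins are made both by myogenic cells and by the fibroblasts of the connective tissue. Because the RNA was taken from whole cultures, fewer cells of a type and less RNA per cell cannot be told apart.

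The guide target sites are shown first because they are the only designed difference between the groups. They are written 5′ to 3′ with the PAM in capitals.

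Myog-En5-sgRNA1: gaaggggttactgtcggcagAGG
Myog-En5-sgRNA2: gaccggaagattgaaccactGGG

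In GRCm38 the first site lies at chr1:134283252-134283274 on the positive strand, 6715 bp before the start of *Myog*, and the second at chr1:134283558-134283580 on the negative strand, 6409 bp before it. Of the 10 matrix genes, *Fn1* is also on chromosome 1, at chr1:71585520-71653200, and the other 9 are on other chromosomes. Promoter windows around the transcript start were taken from RefSeq (GRCm38.p6), where 6 of the 10 genes matched (*Sparc*, *Postn*, *Tnc*, *Thbs2*, *Bgn* and *Fbn1*). Those of *Sparc* and *Thbs2*, the pair called lower in dCas9-KRAB-En5 cells, are shown with that of *Bgn*, the second most abundant of the genes, and 1 of the 2 windows of *Tnc*, whose estimate was on the other side of 0. The capitals mark E-boxes (CANNTG), the motif that myogenin and its relatives bind.

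Sparc: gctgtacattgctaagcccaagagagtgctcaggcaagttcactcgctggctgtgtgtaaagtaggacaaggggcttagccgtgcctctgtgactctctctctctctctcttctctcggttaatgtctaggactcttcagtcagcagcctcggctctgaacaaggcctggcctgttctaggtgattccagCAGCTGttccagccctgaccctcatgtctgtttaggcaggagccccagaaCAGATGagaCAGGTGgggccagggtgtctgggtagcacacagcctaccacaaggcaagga
Thbs2: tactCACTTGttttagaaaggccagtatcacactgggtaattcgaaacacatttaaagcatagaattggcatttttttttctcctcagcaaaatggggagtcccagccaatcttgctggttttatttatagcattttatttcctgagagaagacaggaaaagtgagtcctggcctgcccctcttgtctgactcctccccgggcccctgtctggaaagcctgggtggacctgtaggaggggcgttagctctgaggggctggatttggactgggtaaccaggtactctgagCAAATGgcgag
Bgn: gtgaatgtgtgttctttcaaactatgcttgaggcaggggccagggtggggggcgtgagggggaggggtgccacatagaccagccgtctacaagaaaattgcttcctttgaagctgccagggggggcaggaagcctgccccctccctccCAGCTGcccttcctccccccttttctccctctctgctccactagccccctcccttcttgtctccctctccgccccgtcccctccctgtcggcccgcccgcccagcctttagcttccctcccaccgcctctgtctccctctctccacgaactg
Tnc: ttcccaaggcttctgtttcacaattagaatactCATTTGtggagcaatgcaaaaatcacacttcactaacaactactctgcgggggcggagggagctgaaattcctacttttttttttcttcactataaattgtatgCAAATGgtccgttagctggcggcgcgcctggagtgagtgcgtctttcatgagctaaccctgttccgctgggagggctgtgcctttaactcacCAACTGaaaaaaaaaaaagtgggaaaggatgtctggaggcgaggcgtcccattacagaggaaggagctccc

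The windows span chr11:55420031-55420330 (*Sparc*, negative strand), chr17:14694213-14694512 (*Thbs2*, negative strand), chrX:73483351-73483650 (*Bgn*, positive strand) and chr4:64046966-64047265 (*Tnc*, negative strand). The start used by RefSeq for *Sparc* lies inside the span that GENCODE gives the gene. The *Sparc* window held 3 E-boxes, CAGCTG at position -60, CAGATG at -10 and CAGGTG at -1 relative to the start. The *Bgn* window held 1, CAGCTG at -102, and the *Thbs2* window held CACTTG at -246 and CAAATG at 39, neither of them CAGCTG. The *Tnc* window shown, with 3 E-boxes, also lacked CAGCTG, as did the other *Tnc* window (chr4:64046887-64047186), with 2 E-boxes. The *Fbn1* window held CAGCTG at 38. E-boxes are common letters, since CANNTG occurred in 72.3% of 32851 promoter windows and CAGCTG in 16.3%. CCGCCC, read on both strands as a GC box, occurred 3 times in the *Bgn* window, once in each *Tnc* window and once in that of *Fbn1*, against 35.7% of all windows with at least 1. TATAAA or its reverse complement was found at -126 in the *Thbs2* window and in the *Tnc* window shown. It was at -205 in the other *Tnc* window and at -26 in 1 of 2 *Postn* windows, against 13.6% of all windows. Neither TGANTCA (AP-1) nor GGAATG (TEAD) was found in any window of the 6 genes, against 7.81% and 14.7% of all windows. These matches describe letters, and no binding was measured.

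The libraries held 31831093 to 73988425 counted fragments, so a floor of 3 counts corresponded to 0.0405 to 0.0942 CPM (counts scaled to the library total). *Myog*, the target of the enhancer, had 43211, 68488 and 74845 counts across the control libraries against 12, 0 and 0 with the En5 guides. The direction was the one the labels call for, but *Myod1* and *Myf5* were near 0 in the same libraries as well. The third dCas9-KRAB-En5 library stood apart, with 13991 genes detected against 17084 to 19395 in the others, and with 25.8% of its counts on ribosomal protein genes against 10.8% to 19.4%. Muscle markers summed to 17200 to 19940 TPM (a level corrected for gene length and scaled to the same total in every library) in dCas9-KRAB cells and to 24.3 to 49.6 TPM in dCas9-KRAB-En5 cells, and 12 of 14 tested were called lower, against 4.67% of all tested genes. Among those at or near 0 in dCas9-KRAB-En5 cells were the myoblast-defining genes *Myod1* (0 to 0.0761 TPM) and *Myf5* (0 to 0.0566 TPM). The labelled cell type was thus not borne out by its defining markers in that group, where *Itga7* (9.01 to 27.7 TPM) and *Des* (5.31 to 13.9 TPM) were the muscle markers above 5 TPM in every library. Macrophage markers, which myoblasts should lack, summed to 4538 to 7669 TPM in dCas9-KRAB cells and to 11550 to 19970 TPM in dCas9-KRAB-En5 cells. Of those 15 genes, 11 were tested, and 1 (*Adgre1*) was called higher, against 1.52% of all tested genes, and none lower. At 10 TPM or more in every library were 7, and *Cd163* and *Mrc1* were at 0. *Lyz2* was the largest in every library (1896 to 4815 against 6938 to 13210 TPM). The log2 fold change was below 0 for *Mpeg1* (-1.10), *Aif1* (-1.63) and *C1qb* (-2.03) and above 0 for the other tested ones. *C1qa* and *C1qc* were at most 0.514 and 0.21 TPM. The part of macrophage markers in the results below was not tested.

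Differences between the groups were tested on the counts with edgeR's quasi-likelihood test across 14378 genes. A gene was called at a Benjamini-Hochberg adjusted p of at most 0.01 and a log2 fold change of at least 1 in size. Of the 10 matrix genes, 8 passed the filter on low counts, 2 were called lower in dCas9-KRAB-En5 cells (*Sparc* and *Thbs2*) and none was called higher. Among all tested genes, 4.67% were called lower and 1.52% higher. The log2 fold change was below 0 for 7 of the 8 (*Tnc* was the other), with a median of -1.93 against 0.0755 over all tested genes. TPM of the groups did not overlap, with dCas9-KRAB-En5 lower, for 5 of the 8 (*Sparc*, *Thbs1*, *Thbs2*, *Bgn* and *Fbn1*), against 19.7% of all tested genes. An exact two-sided permutation test of TPM over 3 against 3 libraries cannot give a p below 0.1, and it gave 0.1 for each of those 5 genes. At an adjusted p of at most 0.05 with no fold cutoff 4 of the 8 passed as lower, against 9.6% of all tested genes, and with no filter on low counts 4 were called lower, against 5.14%.

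**Figure D1:**
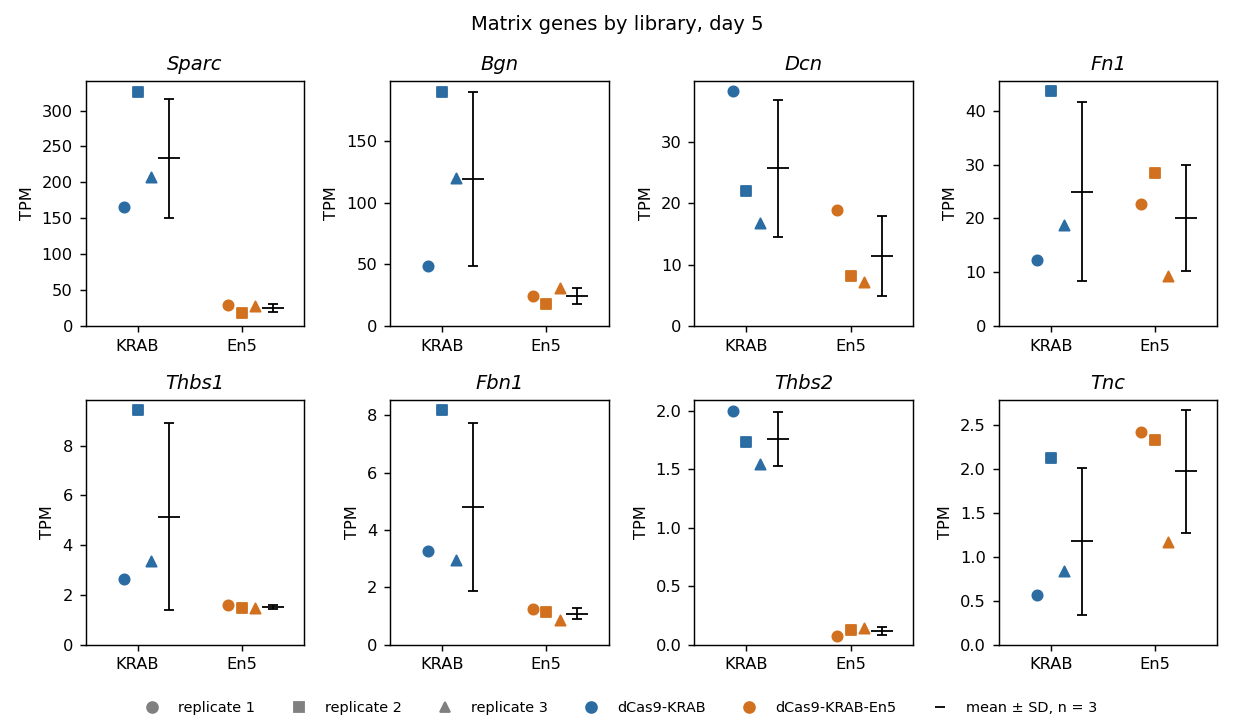
TPM of the matrix genes in each of the 6 libraries, with 1 point per library, dCas9-KRAB and dCas9-KRAB-En5 side by side, and a bar at each group mean. The groups are apart for *Sparc*, *Thbs1*, *Thbs2*, *Bgn* and *Fbn1* and overlap for *Fn1*, *Tnc* and *Dcn*.

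*Sparc* (chr11:55394500-55423183, negative strand, 12 exons after merging transcripts) encodes a collagen-binding protein that loosens cell adhesion, and it was the most abundant of the 10 in dCas9-KRAB cells. Its TPM was 166.2, 325.8 and 208.2 across the dCas9-KRAB libraries, from 17083, 46190 and 35319 counts. In dCas9-KRAB-En5 cells it was 29.3, 18.6 and 27.4, from 2349, 1195 and 2373 counts. The groups were far apart, and no dCas9-KRAB-En5 library came near the lowest dCas9-KRAB library. Mean TPM was 233.4 ± 82.7 (SD, n = 3) for dCas9-KRAB and 25.1 ± 5.69 (SD, n = 3) with the En5 guides. In edgeR the log2 fold change was -3.15 (SE 0.59, 95% interval -4.44 to -1.87, adjusted p = 0.004964), or 8.89-fold lower. *Sparc* stood above 95.1% to 96.7% of tested genes in dCas9-KRAB libraries and above 69.8% to 86.1% in dCas9-KRAB-En5 libraries, so its rank among genes was lower in each of the latter.

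*Thbs2* (chr17:14665500-14694235, negative strand, 21 exons) encodes thrombospondin-2, which inhibits vessel growth and shapes collagen fibrils. Its TPM was 2.0, 1.74 and 1.54 across the dCas9-KRAB libraries, from 380, 455 and 484 counts. In dCas9-KRAB-En5 cells it was 0.0741, 0.126 and 0.144, from 11, 15 and 23 counts. The level was low in both groups, but the dCas9-KRAB libraries were tightly grouped, the highest being 1.3 times the lowest. The log2 fold change was -3.9 (SE 0.70, 95% interval -5.42 to -2.38, edgeR adjusted p = 0.004004), or 14.9-fold lower, the largest estimate among the 8 tested genes.

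Both calls depended on which libraries were included. Leaving out any 1 library other than dCas9-KRAB-En5 replicate 3 ended both, with edgeR adjusted p from 0.01283 to 0.02951 for *Sparc* and from 0.01057 to 0.03182 for *Thbs2*, while both log2 fold changes stayed below 0. In those 5 fits none of the 8 was called, and 1.43%, 2.02%, 2.47% (without dCas9-KRAB replicate 1, 2 or 3), 3.26% and 2.7% (without dCas9-KRAB-En5 replicate 1 or 2) of all tested genes were called lower. Without dCas9-KRAB-En5 replicate 3 the log2 fold change was -3.86 (adjusted p = 0.0002173) for *Sparc* and -4.78 (adjusted p = 0.0002166) for *Thbs2*. In that fit *Bgn*, *Fbn1* and *Thbs1* were called too, which made 5 of 8, while 14.0% of all tested genes were called lower.

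*Thbs1* (chr2:118111876-118127133, positive strand, 22 exons) encodes thrombospondin-1, which activates latent TGF-β and binds CD36 and CD47. Its TPM was 2.63, 9.45 and 3.34 across the dCas9-KRAB libraries, and 1.6, 1.48 and 1.47 across those with En5 guides. The dCas9-KRAB-En5 libraries were nearly equal, whereas dCas9-KRAB replicate 2 was 3.59 times the lowest of its group. The log2 fold change was -1.72 (SE 0.58, 95% interval -2.99 to -0.46), and it did not pass (edgeR adjusted p = 0.0617). Without dCas9-KRAB-En5 replicate 3 it was -2.29 and passed (adjusted p = 0.007854). Thbs1 and Thbs2 proteins share most of their domain plan, so the relation between the levels of the 2 genes was set out by library. The log2 ratio of *Thbs1* to *Thbs2*, with 0.1 TPM added to each, was 0.38, 2.38 and 1.07 for dCas9-KRAB and 3.29, 2.8 and 2.69 for the dCas9-KRAB-En5 libraries. The ratio was higher in every dCas9-KRAB-En5 library, by 1.65 on the log2 scale (exact two-sided permutation test, p = 0.1, the smallest possible, 0.125 adjusted over 5 pairs). With 1 TPM added the difference was 0.18 (exact permutation p = 0.7), because *Thbs2* lay far below 1 TPM in dCas9-KRAB-En5 cells.

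Of the relatives outside the 10, *Thbs3* had 5.21 ± 0.724 TPM for dCas9-KRAB and 13.7 ± 10.0 in dCas9-KRAB-En5 cells (SD, n = 3 each, log2 fold change 1.7, edgeR adjusted p = 0.1251). The cartilage thrombospondin gene *Comp* had 0.427 ± 0.31 and 1.01 ± 0.684 TPM (log2 fold change 0.92, adjusted p = 0.4843), and *Thbs4* had no counts. Neither passed. *Thbs3* TPM was 6.03, 4.92 and 4.67 for dCas9-KRAB and 7.52, 8.29 and 25.2 for the dCas9-KRAB-En5 libraries. Its groups did not overlap, with dCas9-KRAB-En5 higher, as for 7.76% of all tested genes. The *Thbs3* log2 fold change from counts rested on dCas9-KRAB-En5 replicate 3, and without that library it was -0.03. In the SPARC family, *Fstl1*, which encodes a secreted follistatin-like protein, had 16.3, 25.7 and 14.5 TPM for dCas9-KRAB and 8.86, 5.31 and 6.09 for the dCas9-KRAB-En5 libraries. Its groups did not overlap, and its log2 fold change was -1.5 (adjusted p = 0.05264), or -1.98 without dCas9-KRAB-En5 replicate 3, where it was called (adjusted p = 0.004838). *Spock2* had -0.86 (adjusted p = 0.5331), *Sparcl1* and *Smoc1* had too few counts to be tested, and *Spock1*, *Spock3* and *Smoc2* had none.

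*Bgn* (chrX:73483602-73495933, positive strand, 7 exons) encodes biglycan, a collagen-binding proteoglycan that also signals through Toll-like receptors. Its TPM was 48.7, 189.9 and 120.1 across the dCas9-KRAB libraries, from 8067, 43348 and 32809 counts. In dCas9-KRAB-En5 cells it was 24.4, 18.0 and 30.8, from 3147, 1860 and 4301 counts. The groups did not overlap, but the dCas9-KRAB libraries spread 3.9-fold, the widest among the 8 tested genes. The log2 fold change was -2.15 (SE 0.65, 95% interval -3.57 to -0.72), 4.42-fold lower, and did not pass (edgeR adjusted p = 0.04334). DESeq2 called it (-2.14, adjusted p = 0.005919), with 4 of 8 called lower against 9.5% of all genes, as did edgeR without dCas9-KRAB-En5 replicate 3 (-3.06, adjusted p = 0.001795).

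*Dcn* (chr10:97479609-97518143, positive strand, 9 exons) encodes decorin, which binds collagen fibrils and TGF-β. Its TPM was 38.2, 21.9 and 16.8 across the dCas9-KRAB libraries, and 18.9, 8.12 and 7.24 across those with En5 guides. The groups overlapped, since dCas9-KRAB-En5 replicate 1 exceeded dCas9-KRAB replicate 3, but within each replicate number the dCas9-KRAB library was higher. The log2 fold change was -1.34 (SE 0.52, 95% interval -2.48 to -0.20, edgeR adjusted p = 0.09526) and no fit called it. *Dcn* was highest in replicate 1 of both groups, whereas *Bgn* was lowest there among dCas9-KRAB libraries. The log2 ratio of *Bgn* to *Dcn* was 0.35, 3.11 and 2.83 for dCas9-KRAB and 0.37, 1.14 and 2.08 for the dCas9-KRAB-En5 libraries, and the groups overlapped (difference -0.90, exact permutation p = 0.5). With so wide a spread the relative change of biglycan and decorin was not resolved.

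*Lum* (chr10:97565128-97572703, positive strand, 3 exons) starts 46985 bp after the end of *Dcn* on the same strand and encodes lumican, a keratan sulfate proteoglycan of collagen fibrils. It had 11, 8 and 0 counts for dCas9-KRAB and 8, 1 and 0 for the dCas9-KRAB-En5 libraries, at most 0.166 TPM. *Lum* was thus near the floor in both groups, 46985 bp from a gene with 804 to 6055 counts per library, and was too low to test. The log2 ratio of *Lum* to *Dcn*, -7.15 for dCas9-KRAB and -6.16 in dCas9-KRAB-En5 cells, followed *Dcn* and the 0.1 TPM added.

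*Fbn1* (chr2:125300594-125507993, negative strand, 65 exons) encodes fibrillin-1, the core of extracellular microfibrils. Its TPM was 3.26, 8.18 and 2.95 across the dCas9-KRAB libraries, from 1072, 3713 and 1604 counts. In dCas9-KRAB-En5 cells it was 1.24, 1.13 and 0.858, from 318, 232 and 238 counts. The groups did not overlap, and *Fbn1* lay just outside the cutoff with a log2 fold change of -2.21 (SE 0.51, 95% interval -3.32 to -1.10, edgeR adjusted p = 0.01341), or 4.62-fold lower. With the replicate number as a block it passed (-2.14, adjusted p = 0.008099), which made 3 of 8 called lower, against 6.79% of all tested genes in that fit. DESeq2 also called it (-2.24, adjusted p = 0.0005043), as did edgeR without dCas9-KRAB-En5 replicate 3 (-2.58, adjusted p = 0.002398). Of its 50-base words, 19.7% are shared with *Gm9913* on the opposite strand, a gene with no counts in any library.

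*Fn1* (chr1:71585520-71653200, negative strand, 45 exons) encodes fibronectin. Its TPM was 12.3, 43.8 and 18.8 across the dCas9-KRAB libraries, and 22.8, 28.4 and 9.26 across those with En5 guides. The groups overlapped, and the replicates spread 3.55-fold for dCas9-KRAB and 3.06-fold in dCas9-KRAB-En5 cells. Mean TPM was 25.0 ± 16.6 and 20.1 ± 9.83 (SD, n = 3 each), and the log2 fold change was -0.53 (SE 0.49, edgeR adjusted p = 0.4866). Its 95% interval, -1.61 to 0.55, left room for a decrease past the fold cutoff, so no difference was detected and a level shared by both groups was not shown. Without dCas9-KRAB replicate 2 the estimate was -0.0077.

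*Tnc* (chr4:63959785-64047015, negative strand, 27 exons) encodes tenascin-C, an anti-adhesive glycoprotein of injured and developing tissue that binds fibronectin. Its TPM was 0.564, 2.13 and 0.833 for dCas9-KRAB and 2.42, 2.34 and 1.16 for the dCas9-KRAB-En5 libraries. The groups overlapped, and the log2 fold change was 0.60 (SE 0.55, 95% interval -0.59 to 1.80, edgeR adjusted p = 0.4754). Its relatives *Tnxb* and *Tnn* were under 1 TPM in every library. *Tnn* was not called (log2 fold change -1.39, adjusted p = 0.3982). *Tnxb* had 0.041, 0.0654 and 0.00166 TPM for dCas9-KRAB and 0.84, 0.875 and 0.0486 for the dCas9-KRAB-En5 libraries, which overlapped through replicate 3. It missed the cutoff with group alone (log2 fold change 3.61, adjusted p = 0.04297) and was called higher with the replicate block (3.89, adjusted p = 0.003646), with DESeq2, without the filter on low counts, and without dCas9-KRAB-En5 replicate 3 (4.02, adjusted p = 0.005396).

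The relation of *Tnc* to *Fn1* varied less between dCas9-KRAB libraries than either gene. Their log2 ratio was -4.23, -4.3 and -4.34 across the dCas9-KRAB libraries, although *Fn1* itself spread 3.55-fold and *Tnc* 3.78-fold. In dCas9-KRAB-En5 cells it was -3.18, -3.55 and -2.89. On this scale each dCas9-KRAB-En5 library had more *Tnc* per *Fn1* than any dCas9-KRAB library, by 1.08 on the log2 scale on average (exact permutation p = 0.1, the smallest possible, 0.125 adjusted over 5 pairs). With 1 TPM added the difference was 0.73 and the groups overlapped (exact permutation p = 0.2).

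*Postn* (chr3:54361109-54391037, positive strand, 22 exons) encodes periostin, a fasciclin-domain protein of connective tissue. It had 29, 0 and 32 counts across the control libraries and 0 in every dCas9-KRAB-En5 library, and did not pass the filter. With 1 dCas9-KRAB library also at 0 the counts separate no groups. The ratio of *Postn* to *Sparc* differed by 2.51 on the log2 scale (exact permutation p = 0.1, 0.125 adjusted) and followed *Sparc*. The other fasciclin gene, *Tgfbi*, had 0.199 ± 0.115 and 0.822 ± 0.47 TPM (SD, n = 3 each, log2 fold change 1.7, edgeR adjusted p = 0.1611).

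**Figure D2:**
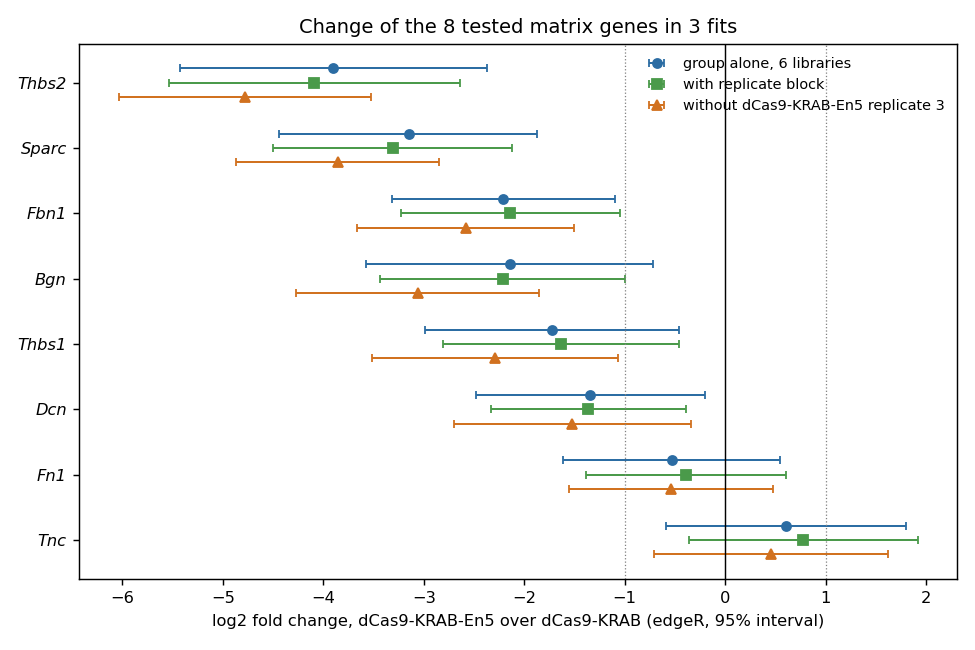
Log2 fold change (dCas9-KRAB-En5 over dCas9-KRAB) of the 8 tested matrix genes with 95% intervals, from edgeR with group alone, with the replicate block, and without dCas9-KRAB-En5 replicate 3, with dotted lines at the fold cutoff of 1. The estimates run from -3.9 for *Thbs2* to 0.60 for *Tnc* with group alone, and those of *Fn1* and *Tnc* have intervals across 0 in all 3 fits.

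The order of levels within each group was taken from TPM. In dCas9-KRAB cells *Sparc* (mean 233.4 TPM) and *Bgn* (119.6) came first, then *Dcn* (25.7) and *Fn1* (25.0), *Thbs1* (5.14) and *Fbn1* (4.8), *Thbs2* (1.76) and *Tnc* (1.18), and *Lum* and *Postn*. The 2 genes of each of these pairs overlapped in range, and each pair was apart from the next. In dCas9-KRAB-En5 cells *Sparc* (25.1), *Bgn* (24.4), *Fn1* (20.1) and *Dcn* (11.4) formed 1 run of overlapping neighbours. *Tnc* (1.98) and *Thbs1* (1.52) overlapped below them, *Fbn1* (1.07) was apart from both neighbours in the order, and *Thbs2* (0.115) lay with *Lum* and *Postn* near 0.

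The summed TPM of the 10 genes was 274.2, 603.0 and 372.7 for dCas9-KRAB and 100.7, 78.2 and 78.3 for the dCas9-KRAB-En5 libraries. Every dCas9-KRAB-En5 library was below every dCas9-KRAB library, by 2.21 on the log2 scale (exact two-sided permutation test, p = 0.1, the smallest 3 against 3 allows). *Sparc* and *Bgn* together made up 78.4%, 85.5% and 88.1% of the sum in dCas9-KRAB cells and 53.2%, 46.8% and 74.3% in dCas9-KRAB-En5 cells. *Fn1* took 4.5%, 7.26% and 5.04% of it for dCas9-KRAB and 22.6%, 36.3% and 11.8% for the dCas9-KRAB-En5 libraries. The sum was therefore carried by *Sparc* and *Bgn* in dCas9-KRAB cells, and fibronectin had a larger share in each dCas9-KRAB-En5 library.

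**Figure D3:**
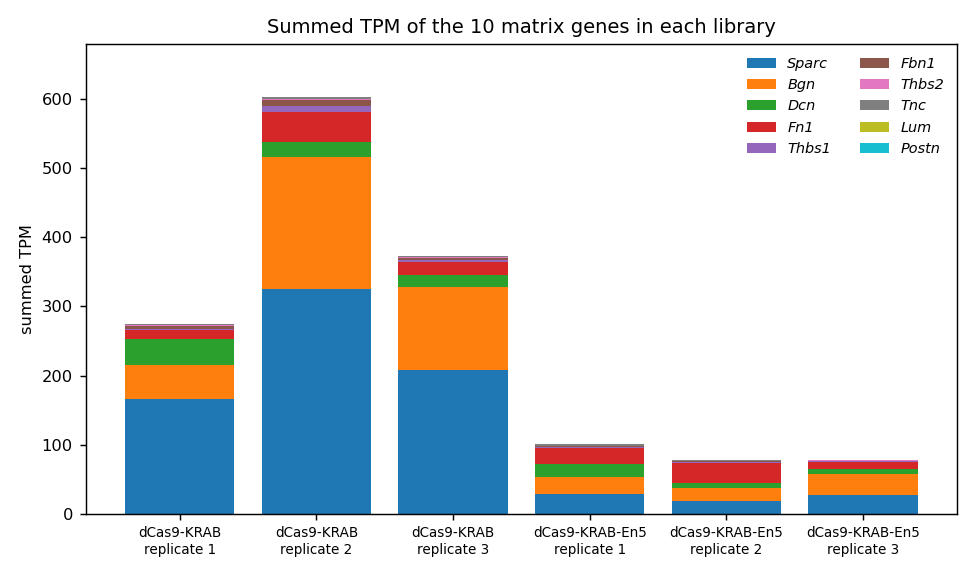
Summed TPM of the 10 matrix genes in each of the 6 libraries, stacked by gene from 0. The sum is 274.2 to 603.0 for dCas9-KRAB and 78.2 to 100.7 in dCas9-KRAB-En5 libraries, and the *Sparc* and *Bgn* segments shrink most.

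**Figure D4:**
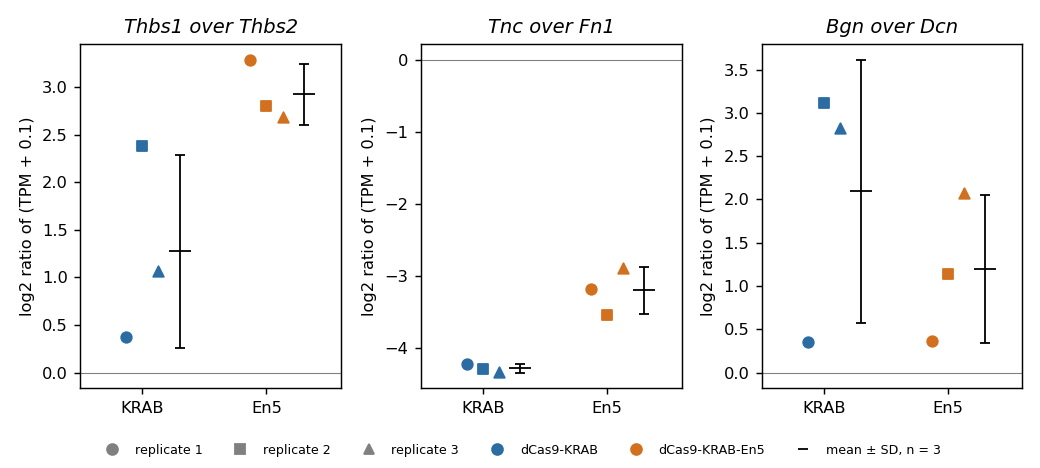
Log2 ratios of TPM (0.1 added) for pairs of the matrix genes, with 1 point per library and a bar at each group mean. The groups overlap for *Bgn* over *Dcn* and are apart for *Thbs1* over *Thbs2* and *Tnc* over *Fn1*.

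Among the dCas9-KRAB libraries, replicate 2 was the highest of the 3 in TPM for 6 of the 8 tested genes (*Fn1*, *Sparc*, *Tnc*, *Thbs1*, *Bgn* and *Fbn1*). It was also the highest for 61 of 73 tested genes of a wider matrix list, against 49.0% of all tested genes. *Thbs2* and *Dcn* were highest in replicate 1. Across the 6 libraries, Pearson's r of log2 CPM was 0.968 for *Sparc* and *Fbn1*, 0.961 for *Sparc* and *Thbs2*, and 0.962 for *Thbs1* and *Bgn*, while *Fn1* had 0.419 with *Sparc* and *Tnc* had -0.441 with it. With 6 libraries in 2 groups such values follow the difference between groups as well as depth and library, and no test was made. By the same measure the genes most like *Sparc* were *Jph2* (r = 0.998), which encodes junctophilin 2 of muscle junctional membranes, and *Olfml3* (r = 0.998). Those most like *Bgn* were *Adgra2* and *Sod3* (both r = 0.997), and those most like *Thbs2* were *Wdr83* and *Abhd1* (both r = 0.999). For *Fbn1* they were *Svil* (0.992) and *Map1a* (0.991), for *Thbs1* *Unc5b* and *Amotl2* (both 0.989), for *Dcn* *Rpp38* (0.994) and *N6amt1* (0.983), for *Fn1* *Actn1* (0.971) and *Arhgap4* (0.968), and for *Tnc* *Gm38560* (0.988) and *Fam222b* (0.985).

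Besides the 10, a list of 100 genes of the same matrix families, their partners and the enzymes that build glycosaminoglycan chains was examined. Of these, 87 had counts, 73 were tested, 12 (16.4%, against 4.67% of all tested genes) were called lower and 2 higher (against 1.52%), with a median log2 fold change of -1.01. The microfibril and elastic fibre genes, the family of *Fbn1*, had 5 of 12 called lower (*Mfap5*, *Ltbp3*, *Ltbp4*, *Fbln1* and *Fbln5*), and 11 of 12 below 0. The other one, *Emilin2*, an elastic fibre interface gene, had 20.2, 60.5 and 43.5 TPM for dCas9-KRAB and 269.6, 506.9 and 71.4 for the dCas9-KRAB-En5 libraries, with the groups apart. It missed the cutoff with group alone (log2 fold change 2.39, adjusted p = 0.01663) and was called higher with the replicate block (2.38, adjusted p = 0.004533), with DESeq2, without the low-count filter, and without dCas9-KRAB-En5 replicate 3. *Ltbp3* and *Ltbp4*, which encode proteins that hold latent TGF-β on microfibrils, had 15.3 ± 7.93 and 8.24 ± 4.37 TPM for dCas9-KRAB and 2.1 ± 0.427 and 1.3 ± 0.558 in dCas9-KRAB-En5 cells (SD, n = 3 each). Their log2 fold changes were -2.93 and -2.86 (edgeR adjusted p = 0.003507 and 0.003437). The fibulin genes *Fbln1* (log2 fold change -3.57, adjusted p = 0.004484) and *Fbln5* (-3.38, adjusted p = 0.005226) fell as well, from 4.48 and 1.08 TPM to 0.439 and 0.123 TPM. The family's count called lower was 0 without dCas9-KRAB replicate 2 or 3 (2.02% and 2.47% of all tested genes), 1 (*Mfap5*) without dCas9-KRAB-En5 replicate 2 (2.7%), 2 without dCas9-KRAB-En5 replicate 1 (3.26%), 3 without dCas9-KRAB replicate 1 (1.43%) and 8 without dCas9-KRAB-En5 replicate 3 (14.0%). It was 2 with total counts as the only scaling (3.59%) and 1 with limma on either TPM scale (3.35% and 4.47%). With at least 10 counts in every library it was 4 (2.91%), and with the replicate block 5 (6.79%). DESeq2 (9.5%) and the fit without the low-count filter (5.14%) each gave 6. Of the 12 genes of the whole list called lower, *Ccn5*, *Ext1* and *Ogn* were called with any 1 library left out.

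The small leucine-rich family beyond *Bgn*, *Dcn* and *Lum* was mostly too low to test, with 2 of 9 genes tested. *Ogn*, the osteoglycin gene, had 868, 319 and 357 counts for dCas9-KRAB and 0, 2 and 0 for the dCas9-KRAB-En5 libraries, and was called lower (adjusted p = 0.0004574). The CCN genes encode matricellular proteins of the SPARC and thrombospondin kind, and 1 of 5 was called. That gene, *Ccn5*, had 13.8 ± 9.37 TPM for dCas9-KRAB and 0.109 ± 0.0158 in dCas9-KRAB-En5 cells (log2 fold change -6.98, SE 0.79, edgeR adjusted p = 0.0002115). *Fndc1*, which carries fibronectin type III domains, had 28, 167 and 117 counts against 0 in every dCas9-KRAB-En5 library, at least 18.8-fold lower against a floor of 3 counts per library.

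Among the 21 tested genes of glycosaminoglycan synthesis, *Ext1*, a heparan sulfate polymerase gene, was called lower (7.51 ± 2.29 to 0.568 ± 0.286 TPM, log2 fold change -4.0, edgeR adjusted p = 0.0003307). *Xylt1*, which encodes the xylosyltransferase that starts proteoglycan chains, had 0.225, 0.435 and 0.426 TPM for dCas9-KRAB and 13.6, 15.1 and 0.421 for the dCas9-KRAB-En5 libraries (log2 fold change 4.24, adjusted p = 0.006979). The chondroitin sulfotransferase gene *Chst3* had 0.363, 0.962 and 0.639 against 10.6, 16.3 and 0.982 TPM (log2 fold change 3.37, adjusted p = 0.007869). In both genes dCas9-KRAB-En5 replicate 3 was near the dCas9-KRAB level while replicates 1 and 2 were far above it, so *Xylt1* overlapped between the groups, and neither gene passed with total counts as the only scaling or without any 1 of the dCas9-KRAB libraries. *Chst3* did not pass without dCas9-KRAB-En5 replicate 2 either. With the replicate block 6 genes of the list were called higher, against 3.94% of all tested genes. The remaining called genes, *Gpc1*, *Hspg2*, *Pcolce* and *Mfap5*, fell outside the naming rule and were named after their values were seen. *Mfap5*, a microfibril gene, went from 9.41 ± 0.965 to 0.21 ± 0.24 TPM, *Gpc1*, a glypican gene, from 290.0 to 16.9 TPM, *Hspg2*, the perlecan gene, from 21.0 to 2.87 TPM, and *Pcolce*, which encodes an enhancer of procollagen processing, from 94.5 to 8.46 TPM. The summed TPM of the wider list did not separate the groups, with 743.7, 1948 and 1393 for dCas9-KRAB and 1744, 2088 and 640.5 for the dCas9-KRAB-En5 libraries.

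**Figure D5:**
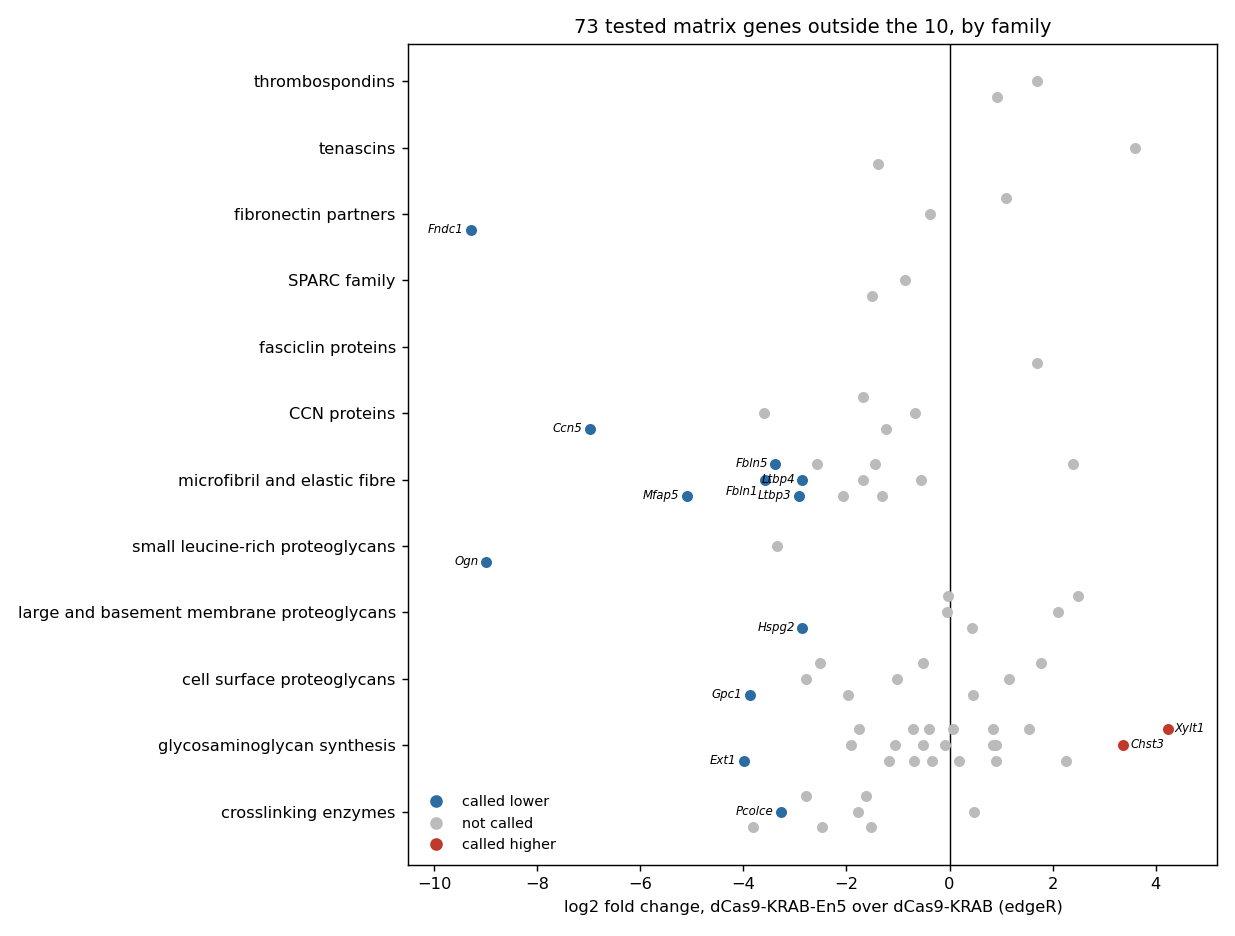
Log2 fold change (dCas9-KRAB-En5 over dCas9-KRAB, edgeR) of the 73 tested matrix genes outside the 10, 1 point per gene, by family. Called genes are coloured and named, 12 lower and 2 higher, and 5 of the 12 lower ones are in the microfibril and elastic fibre family. The positions of *Fndc1* and *Ogn* depend on a small count added in the fit, since most of their dCas9-KRAB-En5 libraries are at 0.

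Markers of other cell types that make matrix were set beside these values. Fibroblast and mesenchymal markers summed to 223.7 to 681.1 TPM for dCas9-KRAB and 278.6 to 1178 TPM in dCas9-KRAB-En5 libraries, with overlapping ranges. Most of that sum was *Vim* (146.6 to 375.5 against 235.3 to 1133 TPM, log2 fold change 1.16, edgeR adjusted p = 0.1399), which many cell types express. Without *Vim*, left out after its values were seen, the sums were 77.2, 305.6 and 155.9 TPM for dCas9-KRAB and 57.8, 45.2 and 43.3 TPM for the dCas9-KRAB-En5 libraries, so every library with En5 guides was lower. Most of that remainder was *Col1a1*, *Col1a2*, *Col3a1*, *Col5a1* and *Col6a1*. Collagen genes are themselves matrix genes, so this sum is not separate from matrix expression and cannot tell cell types apart. Of 15, 11 were tested, 9 had estimates below 0 and 2 (*Col1a1* and *Twist2*) were called lower, against 4.67% of all tested genes. *Vim* and *Pdgfra* (log2 fold change 0.53) had estimates above 0. *Thy1*, *Twist1* and *Tcf21* were at 0 in every library. *Pdgfrb* (1.204 to 5.775 against 0.9798 to 1.465 TPM) and *Prrx1* (0.904 to 1.842 against 0.1737 to 0.7848 TPM) were detected in every library. Endothelial markers summed to 8.98 to 12.7 and 4.1 to 6.45 TPM, with *Tek*, *Emcn* and *Esam* at 0. Most of that sum was *Egfl7* (8.89 to 12.4 against 3.55 to 6.24 TPM, log2 fold change -1.05, edgeR adjusted p = 0.2116). *Pecam1* and *Vwf*, also tested, had estimates above 0 (3.14 and 1.07), and none was called. Adipocyte markers summed to 1.61 to 2.12 and 3.42 to 10.5 TPM, with *Adipoq*, *Cidec* and *Lep* at 0. Of the 2 tested, *Fabp4* was called higher (log2 fold change 3.46, edgeR adjusted p = 0.001289), against 1.52% of all tested genes, and *Pparg* had 1.06 to 1.47 against 0 to 0.128 TPM (log2 fold change -5.09, adjusted p = 0.01435). The part of these cell types in the matrix values was not tested.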

How the data were processed

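Poly-A RNA of 6 libraries was sequenced on an Illumina NovaSeq with paired reads. The authors aligned the reads to GRCm38 (mm10) with HISAT2 2.2.1 and counted them per gene with featureCounts. The deposited files, 1 per library, hold raw counts and TPM, which the authors computed from counts and exon lengths. The annotation release and strand setting are not given in the sources used here, and the library kit does not mark strand, so reads of a gene and an antisense neighbour cannot be told apart. A gene absent from a file was taken as 0. Groups and replicate numbers came from the labels.

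Counts were tested with edgeR 4.0.16 (R 4.3.3): TMM factors, filterByExpr (minimum count 10, minimum total 15), the quasi-likelihood test with group as the only term, and Benjamini-Hochberg adjustment over all tested genes. The cutoffs were those of the study, an adjusted p of at most 0.01 and a log2 fold change of at least 1 in size. SEs were derived from the F statistic. TPM sums and log2 ratios were compared with exact permutation tests. Alternatives were DESeq2 1.42.0 on the same genes, limma 3.58.1 (log2 of TPM with 1 or 0.1 added), other scalings and filters, the replicate block, and each library left out. The test was also run on simulated counts. These had the same dispersion for every gene and no differences between libraries besides depth and the changes put in, unlike the libraries here. CPM were computed from the deposited counts, scaled to the library total for lower bounds on fold changes and with TMM factors for correlations. Ranks of libraries were taken from TPM.

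Libraries with the same replicate number deviated together from their group means (r = 0.262, 0.214 and 0.29 over 14378 genes, against -0.34 to -0.0508 for different numbers). Deviations within a group sum to 0, so the r values of same and different numbers are not independent. The labels do not say that the numbers pair the libraries. The main test and the permutation tests did not use the replicate numbers, and the blocked fit is given where it changes a call. No 2 libraries of a group agreed within sampling noise (chi-square per degree of freedom 110.2 to 874.6). The matrix genes and the lists were chosen with earlier results of these data known. Named from the wider list were up to 8 genes in each direction with the smallest adjusted p among those called, and relatives of called genes. *Tnxb*, *Tnn*, *Tgfbi* and *Emilin2* were named outside that rule, after their values were seen. Those most like a gene were the 2 with the highest r of log2 CPM (prior count 2). Gene positions are those of GENCODE on GRCm38. Depth per library was 40554323, 66910018 and 73988425 counts for dCas9-KRAB and 40384720, 35388411 and 31831093 for dCas9-KRAB-En5 (replicates 1, 2 and 3). Count floors cover counting error only.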

Additional observations from a re-analysis of the deposited data

How the results depend on the processing

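None of the 8 tested matrix genes changed direction under the 16 alternatives run for each (128 values, of which 110 kept both direction and side of the cutoffs, 8 newly passed and 10 no longer passed). *Sparc* and *Thbs2* were called lower with the 6 libraries in every tool, scaling, filter and cutoff tried, and 4 genes were called lower with DESeq2, without the filter on low counts, and at an adjusted p of at most 0.05 with no fold cutoff. Leaving out 1 library gave 0 to 5 called lower, and none was called higher in any setting. The replicate block gave *Sparc* a log2 fold change of -3.31 and *Thbs2* one of -4.09, called *Fbn1*, and changed no other call among the 10. In the wider list, 12 genes were called lower, against 19 with DESeq2, 19 without the low-count filter, 6 with limma on log2(TPM + 1), and 3 to 24 with 1 library left out. Of all tested genes 4.67%, 9.5%, 5.14%, 3.35% and 1.43% to 14.0% were called lower in those fits, in the same order. Those called higher numbered 2, against 7 with DESeq2, 6 without the filter, 6 with the replicate block, 7 at an adjusted p of at most 0.05, 0 with total counts only, 0 with limma on either TPM scale, and 0 to 9 with 1 library left out. Of all tested genes 1.52%, 6.79%, 4.32%, 3.94%, 7.43%, 0.487%, 0.223% or 0.459% (limma), and 0.0397% to 11.7% were called higher, in the same order. Over all genes, 671 were called lower and 219 higher, against 516 and 70 with total counts only, 1194 and 1004 without the filter, 1362 and 974 with DESeq2, 976 and 567 with the block, and 2134 and 1787 without dCas9-KRAB-En5 replicate 3. The median log2 fold change of all genes ran from -0.0526 to 0.18. The causes were not tested. The summed TPM and the ratios kept their direction in every alternative, the difference in the sum lying between -2.48 and -1.91 with 1 library left out, where 2 against 3 libraries cannot give a p below 0.2. Within same-numbered replicates the sum differed by -2.21 (exact sign-flip permutation p = 0.25, the smallest 3 pairs allow). Depth limits *Lum*, *Postn* and the dCas9-KRAB-En5 level of *Thbs2*.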
